A study of Sciaenops ocellatus with 24 samples.

Results

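ola-miR-462 and ola-miR-731 are the medaka names of 2 microRNAs (miRNAs) that lie side by side in the genomes of bony fish and are made from 1 primary transcript. They were taken by name from the 6 deposited count tables of a study of red drum (Sciaenops ocellatus), a marine fish, and make up 2 of the 260 miRNA names in these tables. Each of the 6 tables listed both names, and 0 of the 24 libraries had a count of 0 for either. No name of miR-462 or miR-731 from another species was listed, and the names carry no arm, so a value below stands for the reads counted under that medaka name.

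In zebrafish the miR-462 and miR-731 cluster is induced under low oxygen through the hypoxia-inducible factor, and it takes part in the formation of blood cells. In rainbow trout and other fish both miRNAs rise with viral infection and with interferon, the signal that sets cells against viruses. Like other miRNAs they act by pairing with mRNAs and lowering their translation or stability. Crude oil disturbs the heart and circulation of fish larvae, and whether this cluster differed between exposed and unexposed larvae is the question of the comparisons below.

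The larvae were whole red drum of 48 hours post fertilization, pooled per sample, from embryos collected from brood stock tanks and treated with formalin before the exposures. Slick oil was a naturally weathered oil taken off the Gulf of Mexico, and source oil was a pipeline oil used as a stand-in for the oil released by Deepwater Horizon. Each was blended at high energy with seawater and given at 1.25%, 2.50% and 5.00% (slick) or 0.135%, 0.27% and 0.54% (source) by volume. Every oil had its own unexposed control, and all 8 groups had 3 libraries. No label ties a library to its own spawn or tank, and p-values here reflect variation among these libraries alone, possibly technical. The larvae were pooled whole, so fewer cells that carry a miRNA and less of it per cell cannot be told apart.

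Total counts per library ran from 2820454 to 9741582, lowest at 5.00% slick oil (2820454 to 4346165). Whole larvae is the labelled tissue, and the libraries held miRNAs of muscle (miR-206 and miR-133), nerve (miR-9, miR-124 and miR-128), eye (miR-184 and miR-204), red blood cells (miR-144 and miR-451) and immune cells (miR-142). The names listed in all 6 tables with equal control counts held no miR-122 of liver, miR-1 of muscle or miR-223 of immune cells. Results are given from a fit to all names that reached 10 counts in 3 or more libraries, in which the biological coefficient of variation was up to 139% in the 6 comparisons. A second fit took the names counted in every library of the comparison, and there it was 11.4% to 36.7%. Calls are edgeR adjusted p-values under 0.05.

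Both miRNAs were scarce. ola-miR-462 stood at 8.04 to 37.9 and ola-miR-731 at 11.97 to 59.6 CPM of a library's total count, CPM being the count scaled to the same total in every library. They ranked between 116 and 171, and between 100 and 160, among the 193 to 205 names of a table. The last places came only from replicate 1 of the slick and of the source controls. In these libraries ola-miR-462 ranked between 153 and 171, and in all others between 116 and 131. ola-miR-731 ranked between 100 and 130 in all others, and further down in these. Why these control libraries differ was not tested. The counts of ola-miR-462 were 31 to 168 in the slick experiment and 165 to 259 in the source experiment. The sampling error of a single count was thus 6.21% to 17.96%, which covers counting error only. The counts of ola-miR-731 were 88 to 413 and 282 to 496, with a sampling error of 4.49% to 10.66%.

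Levels are given in CPM over the names tested across all 24 libraries, scaled by the trimmed mean of M values (TMM). ola-miR-462 was at 19.0, 17.4 and 21.1 CPM in the slick controls. With slick oil it was at 15.9, 27.8 and 21.03 CPM at 1.25%, at 22.9, 13.2 and 13.9 CPM at 2.50% and at 14.9, 16.5 and 30.04 CPM at 5.00%. In the source controls it was at 38.9, 33.0 and 37.7 CPM. Every slick library lay below every source library, exposed or not. The share of other names that separate both experiments in this way was not counted. This separation is therefore not shown to be particular to ola-miR-462. With source oil it was at 32.6, 33.2 and 36.8 CPM at 0.135%, at 32.5, 39.2 and 43.3 CPM at 0.27% and at 38.0, 37.6 and 36.7 CPM at 0.54%. Within either experiment the groups overlapped.

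Ordered by mean, ola-miR-462 ran from 16.6 ± 5.42 CPM (SD, n = 3) at 2.50% slick oil over the slick controls (19.2 ± 1.87), 5.00% (20.5 ± 8.30) and 1.25% slick oil (21.6 ± 5.96) to 0.135% source oil (34.2 ± 2.29). The source controls (36.6 ± 3.12), 0.54% (37.4 ± 0.65) and 0.27% source oil (38.3 ± 5.47) followed. Neighbours in this order lay within their SD, except for the step from 1.25% slick to 0.135% source oil.

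ola-miR-731 was at 36.3, 61.0 and 58.6 CPM in the slick controls and at 78.7, 79.3 and 88.6 CPM in the source controls. With slick oil it was at 17.8, 52.5 and 55.4 CPM at 1.25%, at 51.1, 90.7 and 22.4 CPM at 2.50% and at 56.8, 61.7 and 85.8 CPM at 5.00%. The spread within these groups was wide, with a coefficient of variation up to 62.7%. With source oil ola-miR-731 was at 64.7, 80.1 and 56.8 CPM at 0.135%, at 61.1, 60.9 and 62.0 CPM at 0.27% and at 48.2, 55.2 and 72.2 CPM at 0.54%. The coefficient of variation at 0.27% was 0.98%, below the sampling error of its single counts (5.03% to 5.45%), so this closeness understates the spread. The libraries of the 2 higher source concentrations all lay below the source controls, while 1 library at 0.135% lay among them. This separation holds under TMM and is lost under library totals alone. For levels these totals were summed over the 131 names used across oils, not over all names. By them the controls were at 65.2, 71.6 and 87.0 CPM, 0.27% at 62.0, 63.5 and 77.9 CPM and 0.54% at 63.6, 62.7 and 79.7 CPM.

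By mean, ola-miR-731 ran from 41.9 ± 20.9 CPM at 1.25% slick oil (SD, n = 3) over the slick controls (51.9 ± 13.6) and 2.50% slick oil (54.7 ± 34.3) to 0.54% (58.6 ± 12.3), 0.27% (61.3 ± 0.60) and 0.135% source oil (67.2 ± 11.9). Slick oil at 5.00% (68.1 ± 15.5) and the source controls (82.2 ± 5.56) were highest. Each neighbouring pair in this order lay within its SD and overlapped.

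**Figure D1:**
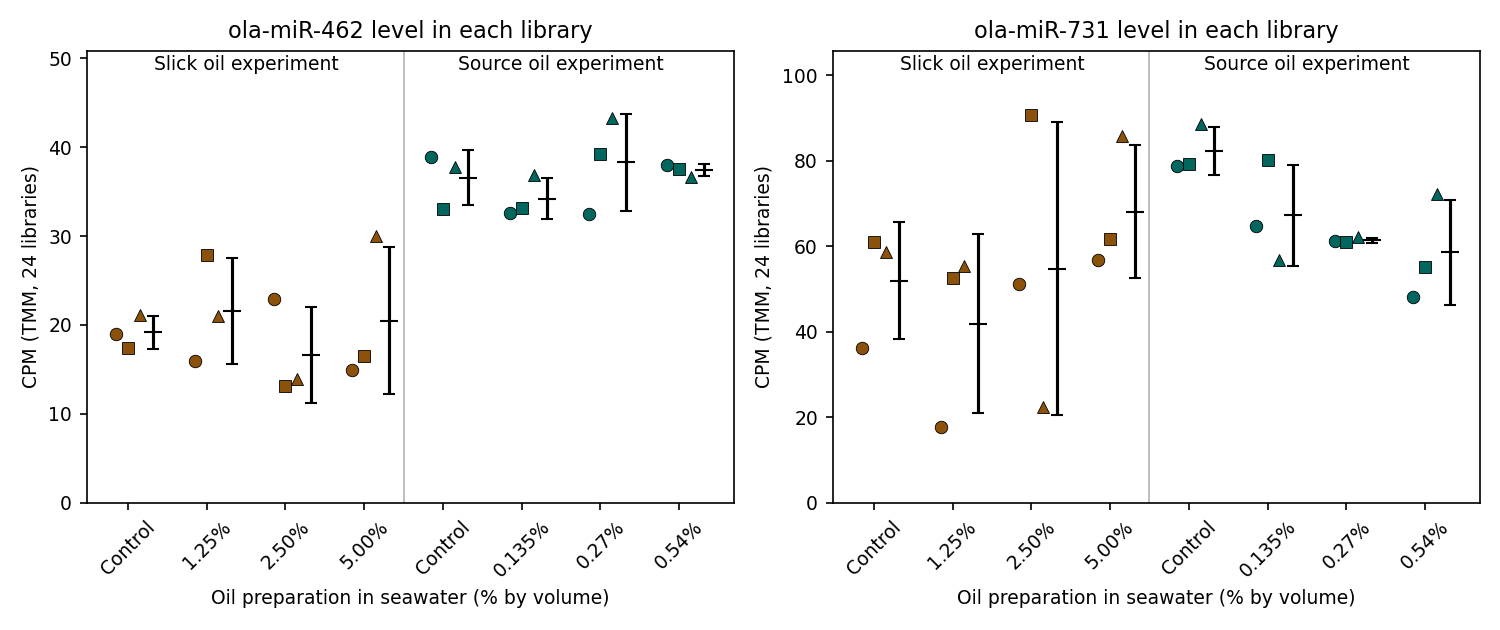
Level of ola-miR-462 (left) and ola-miR-731 (right) in CPM, TMM-scaled over 24 libraries, by oil and concentration in % by volume. Points are libraries (circle, square and triangle for replicates 1, 2 and 3), bars the mean ± SD of 3, and the ola-miR-731 libraries at 0.27% and 0.54% source oil lie below the 3 source controls, which they do not under library totals alone.

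In source oil ola-miR-731 fell with concentration, whereas ola-miR-462 was not called. Over the 12 libraries of the source experiment the log2 change of ola-miR-731 per highest concentration was -0.45 ± 0.15 (SE, edgeR adjusted p = 0.0429), and -0.45 ± 0.14 among names counted in every library (adjusted p = 0.0151). That of ola-miR-462 was 0.09 ± 0.13 (adjusted p = 0.792 and 0.599). Lower calls made up 16.2% of the 167 names of this fit, and 24.8% of 109 in the second fit, and higher calls 13.2% and 27.5%. Under library totals alone 5 of 167 names were called lower and 40 higher, and 10 and 49 of 109 in the second fit. The fall of ola-miR-731 was called without the replicates numbered 3 (adjusted p = 0.0228), but not without those numbered 1 (0.211) or 2 (0.274), nor with the replicate number as a block (0.0616). Among names counted in every library it was likewise called only without those numbered 3 (0.0089 against 0.116 and 0.0983), and also with the block (0.0146). Under library totals alone the slope was -0.22 (adjusted p = 0.361), with the median of all names moved from -0.01 to 0.24.

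At 0.54% source oil ola-miR-731 had a log2 fold change of -0.55 ± 0.17 (SE, n = 3 against 3), with 41.9 ± 7.59 against 61.6 ± 5.54 CPM (SD) within that table. Its edgeR adjusted p was 0.0887 over all names and 0.0272 among names counted in every library (-0.53 ± 0.15), so the call depended on the names fitted. Lower calls made up 11.8% of 153 and 21.8% of 119 names. Under TMM the exposed and control libraries did not overlap, which held downwards for 26.8% of the names. In the second fit the call was kept without exposed library 3 (adjusted p = 0.00486) or control 1 (0.0356), and was lost without controls 2 (0.0515) or 3 (0.0719) or exposed libraries 1 (0.0677) or 2 (0.0789).

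ola-miR-462 was not called at 0.54% source oil. Its log2 fold change was -0.02 ± 0.11 (adjusted p = 0.952), with 26.9 ± 1.24 against 27.4 ± 2.53 CPM (SD, n = 3). The direct comparison of both miRNAs is their ratio, given further below, with an exact permutation p of 0.1 (adjusted 0.3) at 0.54%. The direction of ola-miR-462 hung on the scaling, while ola-miR-731 stayed lower. Under library totals alone they were at 0.29 and -0.26, neither called, with the median of all names moved from -0.03 to 0.28. A change of scaling moves all names alike, so values relative to that median stay close to those under TMM by construction.

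At 0.27% source oil ola-miR-731 had a log2 fold change of -0.40 ± 0.09 (SE), with 45.5 ± 1.20 against 60.1 ± 3.72 CPM (SD, n = 3). The edgeR adjusted p was 0.0737 over all names and 0.0364 among names counted in every library (-0.41 ± 0.11). Lower calls made up 1.27% of 158 and 13.9% of 115 names. Under TMM exposed and control libraries did not overlap, as was so downwards for 17.1% of the names. In the second fit the call was kept without exposed library 1 (adjusted p = 0.0419) and lost without exposed library 2 (0.0749) or 3 (0.0886) or without control 1 (0.0547), 2 (0.105) or 3 (0.135), and with the replicate block (0.0562). Under library totals alone the value was -0.16 (adjusted p = 0.593), and -0.22 in the second fit (0.232). ola-miR-462 was at 0.09 ± 0.16 (adjusted p = 0.952).

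At 0.135% source oil neither miRNA was called, with log2 fold changes of -0.27 ± 0.16 for ola-miR-731 and -0.08 ± 0.10 for ola-miR-462 (adjusted p = 0.594 and 0.963). Lower calls made up 1.28% of 156 names there, and 0% of 114 in the second fit, where 27 names had an unadjusted p under 0.05. Both miRNAs overlapped between exposed and control libraries, and 8.33% of the names lay wholly below the controls. The 3 source comparisons share their control libraries, so their values are not independent of each other.

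In the authors' deposited tables ola-miR-731 had log2 fold changes of -0.28, -0.43 and -0.51 from the lowest to the highest source concentration, with adjusted p-values of 0.334, 3.05e-07 and 0.0103. Of all names there 11.3% of 195, 17.4% of 190 and 31.8% of 198 were under 0.05 in either direction. The authors' deposited tables gave ola-miR-462 -0.10, 0.05 and 0.00, with adjusted p-values of 0.854, 0.985 and 0.994. DESeq2 run on the same counts gave ola-miR-731 adjusted p-values of 3.56e-05 at 0.27% and 0.00706 at 0.54%. That run called 20 of 158 names lower and 11 higher at 0.27%, and 32 of 153 lower and 32 higher at 0.54%. At 0.27% the ola-miR-731 levels of the exposed libraries lay closer together under TMM than their sampling error. Both adjusted p-values of ola-miR-731 there, the authors' and that of the run, may thus be too small.

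miRNAs of several tissues moved in the same libraries. Over the 12 source libraries 16.2% of the 167 names tested were called lower and 13.2% higher. Of the red blood cell names 2 of 2 fell, ssa-miR-144-3p (-0.99 ± 0.10, edgeR adjusted p = 0.000104), and chi-miR-451-5p, at -0.70 ± 0.17 (0.0134). The summed level of both, by totals of the 131 names used across oils, was 212 to 308 CPM in the controls. It was 206.5 to 232.4 CPM at 0.135%, 195 to 229 at 0.27% and 164 to 187 at 0.54%. Of the 24 libraries 0 had either name at 0. In the slick slope, where 0.617% of 162 names were called, 1 of 2 fell, ssa-miR-144-3p (-1.59 ± 0.27, adjusted p = 0.0197). Both eye names fell in the source slope, ola-miR-184-5p (-1.002 ± 0.17, adjusted p = 0.00219) and ola-miR-204 (-0.73 ± 0.20, 0.0188). Their summed level by the same totals was 19170 to 23360 CPM in the controls and 14587 to 16545 CPM at 0.54%. Of 6 nervous system names mdo-miR-128a-5p fell (-0.74 ± 0.21, 0.0225) and ola-miR-124-5p rose (0.30 ± 0.10, 0.0391), near the shares of all names. At 0.54% source oil ola-miR-124-5p was at 0.23 ± 0.09 (edgeR adjusted p = 0.126). Another miR-124 name, dre-miR-124-4-5p, was at 0.07 ± 0.15 there (0.901). The other miR-128 name, ola-miR-128, was at 0 in 11 of the 24 libraries. Of 4 muscle names ssa-miR-206-5p fell (-0.47 ± 0.10, 0.0093) and rno-miR-133b-5p rose (0.89 ± 0.25, 0.0209). By the same totals the summed level of 2 muscle names was 221703 to 281379 CPM in the controls and 228690 to 241825 at 0.54%. That of 6 nervous system names was 410398 to 472643 and 413085 to 457608 CPM, so both sums overlapped. The part of these miRNAs in the fall of ola-miR-731 was not tested.

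**Figure D2:**
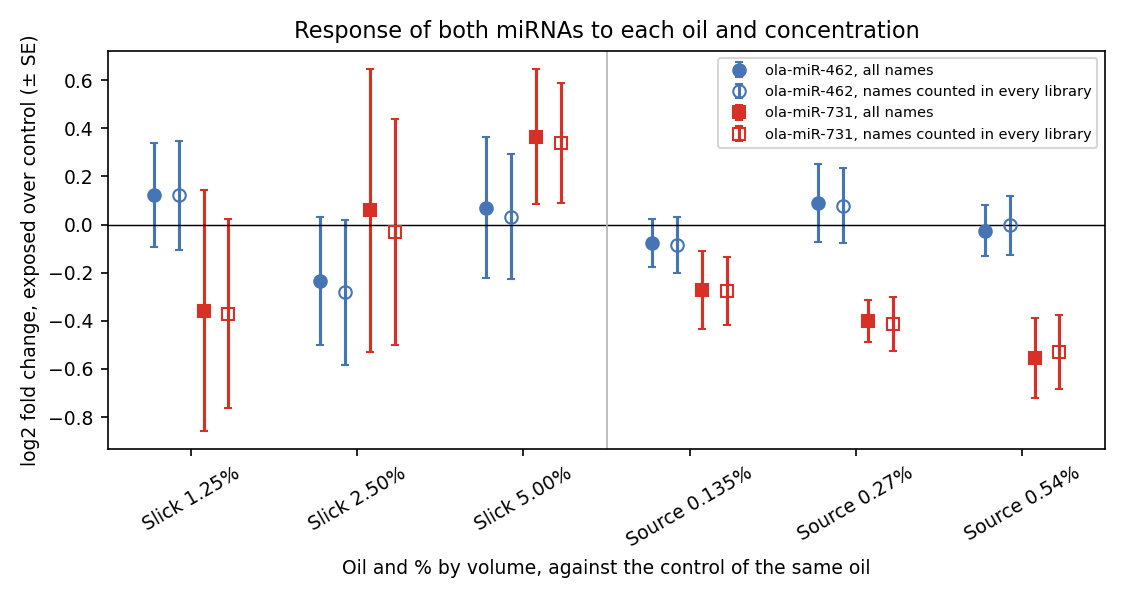
Log2 fold change of exposed over control larvae (± SE) for both miRNAs in the 6 comparisons, each of 3 against 3 libraries, from the fit to all names (filled) and to names counted in every library (open). In source oil ola-miR-731 is at -0.27, -0.40 and -0.55 from low to high and ola-miR-462 stays within 0.09 of 0.

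The ratio of both counts within a library needs no scaling between libraries. In the source controls ola-miR-462 had 0.495, 0.417 and 0.426 counts for each count of ola-miR-731. At 0.27% source oil the ratio was 0.532, 0.644 and 0.698, and at 0.54% it was 0.788, 0.681 and 0.508. All 6 of these ratios were above the 3 control ratios, which both concentrations share. How many pairs of names separate so was not counted. Of single names 17.1% at 0.27% and 26.8% at 0.54% lay wholly below the controls under TMM. At 0.135% the ratio was 0.504, 0.415 and 0.649, overlapping the controls.

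On the log2 scale the ratio differed from the controls by 0.54 ± 0.20 (SE) at 0.54%, by 0.48 ± 0.14 at 0.27% and by 0.21 ± 0.20 at 0.135% source oil. The exact two-sided permutation p was 0.1, 0.1 and 0.5, and 0.1 is the smallest that 3 against 3 libraries allow (adjusted over 6 comparisons 0.3, 0.3 and 0.6). A slope over the 12 libraries, a test chosen after the ratios had been seen, was 0.54 ± 0.19 per highest source concentration (SE, two-sided permutation test, p = 0.0226, adjusted over both oils 0.0452). It passed without the replicates numbered 3 (adjusted p = 0.0107) and failed without those numbered 1 (0.342) or 2 (0.247).

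**Figure D3:**
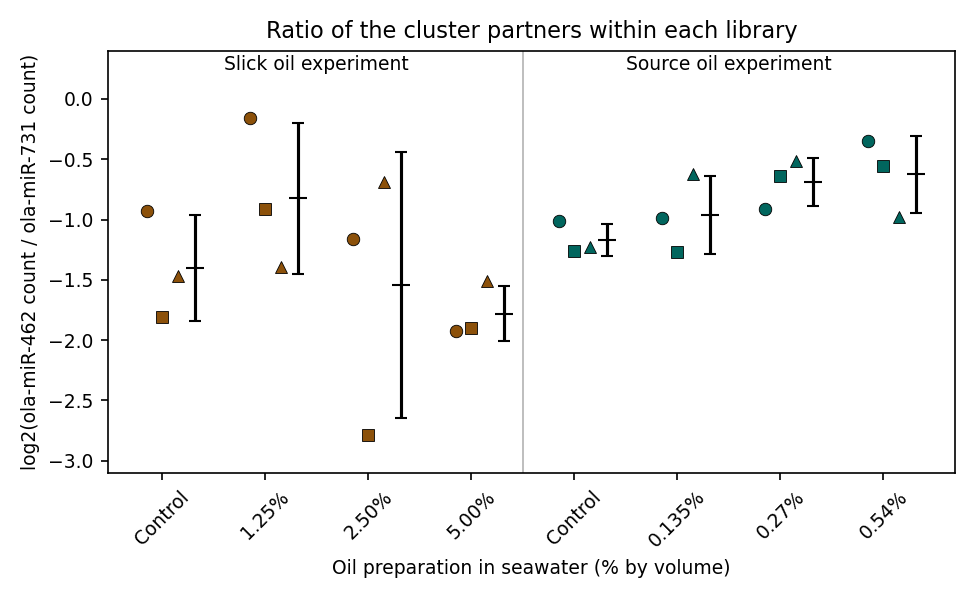
Log2 ratio of the ola-miR-462 count to the ola-miR-731 count in each library, by oil and concentration in % by volume. Points are libraries (circle, square and triangle for replicates 1, 2 and 3), bars the mean ± SD of 3, and the 6 libraries at 0.27% and 0.54% source oil lie above the source controls they share.

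Slick oil gave no call for either miRNA, and its libraries spread more. At 5.00% ola-miR-731 had a log2 fold change of 0.37 ± 0.28 and ola-miR-462 of 0.07 ± 0.29 (SE, edgeR adjusted p = 0.659 and 0.969). Calls made up 2.01% of the 149 names there, and 5.5% of 109 in the second fit. At 2.50% the values were 0.06 ± 0.59 and -0.23 ± 0.27 (adjusted p = 0.99 for both), with 0% of 156 names called by edgeR, 4 at an unadjusted p under 0.05 and 1 called by DESeq2, and at 1.25% they were -0.36 ± 0.50 and 0.12 ± 0.22 (adjusted p = 0.988 for both), with 0.629% of 159 names called. The slopes over the 12 libraries were 0.55 ± 0.48 and 0.07 ± 0.32 per highest concentration (adjusted p = 0.89 and 0.982), with 0.617% of 162 names called. In all 3 slick comparisons both miRNAs overlapped between exposed and control libraries, whereas 8.81%, 10.9% and 20.8% of the names did not from the lowest to the highest concentration. The standard errors of ola-miR-731 were 0.28 to 0.59, against 0.09 to 0.17 in source oil. With 1 library left out it ranged from -0.67 to -0.014 at 1.25%, nearest to 0 without exposed library 1, and from 0.15 to 0.54 at 5.00%, lowest without control 1.

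The ratio was 0.524, 0.286 and 0.361 in the slick controls and 0.263, 0.268 and 0.350 at 5.00%. At 1.25% it was 0.898, 0.530 and 0.380 and at 2.50% it was 0.448, 0.145 and 0.621. These groups overlapped, and the log2 differences from the controls were -0.38 ± 0.29 at 5.00%, -0.14 ± 0.68 at 2.50% and 0.58 ± 0.44 at 1.25% (SE, exact permutation p = 0.2, 0.9 and 0.2). With 1 library left out they ranged from -0.58 to -0.14 at 5.00%, from -0.57 to 0.48 at 2.50% and from 0.25 to 0.87 at 1.25%. The slope over the 12 libraries was -0.60 ± 0.53 (permutation p = 0.284).

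The responses to both oils were compared at the matched rank of concentration, since the loadings differ. At the highest rank the slick response of ola-miR-731 exceeded the source response by 0.88 ± 0.58 on the log2 scale, and that of ola-miR-462 by 0.06 ± 0.36 (edgeR adjusted p = 0.373 and 0.949). At the middle rank the differences were 0.50 ± 0.58 and -0.27 ± 0.36, and at the lowest rank -0.02 ± 0.58 and 0.27 ± 0.36, none of them called. Calls made up 0% of the names at each rank, in both fits. Names with an unadjusted p under 0.05 numbered 22, 13 and 3 from the highest to the lowest rank, and DESeq2 called 8, 6 and 2. For the ratio the difference at the highest rank was -0.92 on the log2 scale, the mean of the slick response being -0.38 and that of the source response 0.54. An exact permutation test within each oil, also chosen after the ratios had been seen, gave p = 0.025, and 0.075 adjusted over the 3 ranks, which misses the threshold.

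Unexposed larvae of the 2 experiments differed in ola-miR-462. It was lower in the slick than in the source controls by a log2 difference of -0.93 ± 0.26 (SE, edgeR adjusted p = 0.0178), and of -0.88 ± 0.24 among names counted in every library (adjusted p = 0.00812). ola-miR-731 was at -0.66 ± 0.41 and was not called (adjusted p = 0.329). Lower calls made up 14.5% of the names of this fit, and 19.8% of 96 in the second. Over all names the call for ola-miR-462 was lost without the replicates numbered 1 (adjusted p = 0.0587), 2 (0.206) or 3 (0.0996), and under library totals alone (-0.78, adjusted p = 0.0943). Among names counted in every library it was kept without those numbered 1 (0.0133) and under library totals (-0.80, 0.0384), and lost without those numbered 2 (0.0926) or 3 (0.0635). Experiment and control group are the same here, so larvae, handling and sequencing cannot be told apart.

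Although they share a transcript, no correlation between the levels of both miRNAs passed its test. Pearson's r of log2(CPM + 1) was 0.31 over the 12 slick libraries (permutation p = 0.332, adjusted over both oils 0.50) with a Spearman rho of 0.04 (p = 0.905, adjusted 0.905). Over the 12 source libraries r was -0.22 (permutation p = 0.50, adjusted 0.50) and rho -0.22 (p = 0.501, adjusted 0.905). Without the 2 libraries farthest from the median of ola-miR-462 r was 0.11 and -0.29. Around the group means r was 0.41 for slick and -0.18 for source oil.

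**Figure D4:**
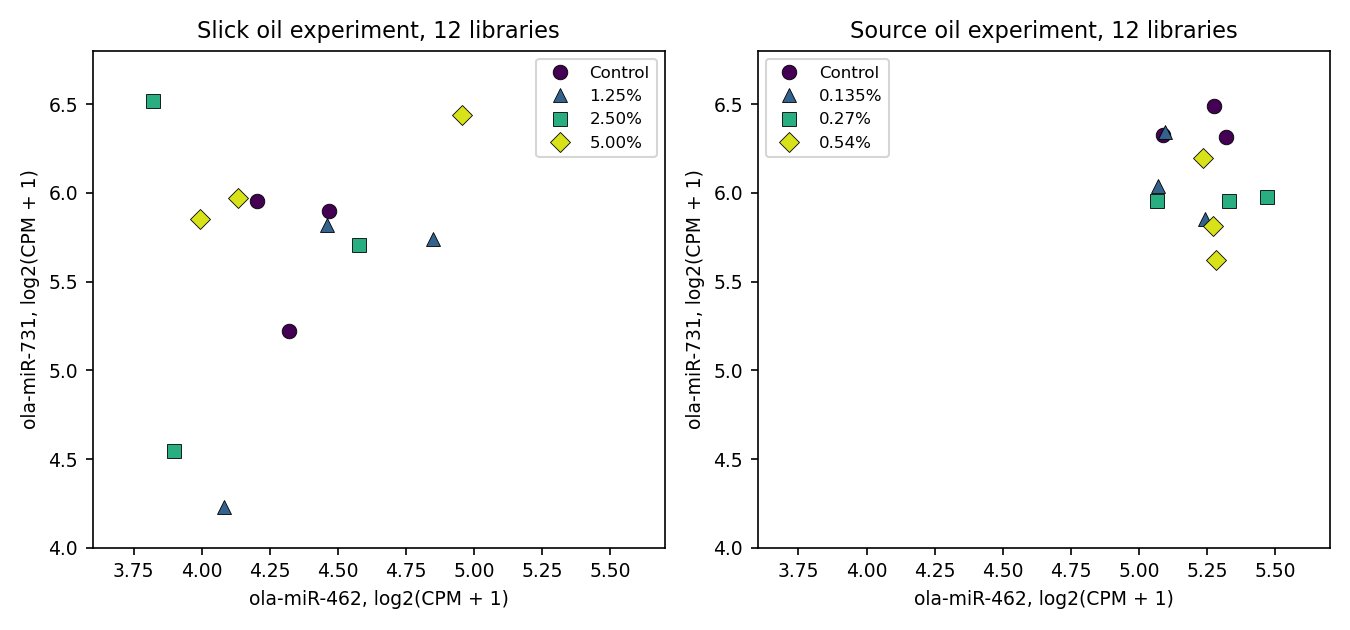
Level of ola-miR-731 against ola-miR-462, both in log2(CPM + 1), over the 12 libraries of the slick (left) and the source experiment (right), marked by concentration in % by volume. The points form no line in either panel, with r = 0.31 and -0.22.

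The names most like each member were ranked by Pearson's r over the 24 libraries after the mean of each oil had been subtracted, among 95 other names counted in every library. These r are descriptions over libraries that share their scaling, and no test was made. ola-miR-731 was most like mdo-miR-128a-5p, a miRNA of the brain (r = 0.88), followed by 2 names of miR-10b, a miRNA of the Hox clusters (mdo-miR-10b-5p with 0.84 and sha-miR-10b with 0.83), oar-miR-30d (0.83) and ssa-miR-22b-5p (0.81). Within the source experiment these r were 0.89, 0.92, 0.89, 0.83 and 0.40, and within the slick experiment 0.90, 0.83, 0.83, 0.84 and 0.86.

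ola-miR-462 was most like aca-miR-212-5p (r = 0.69), ola-miR-194-5p (0.65), dre-miR-23a-3-5p (0.64), mdo-miR-24-3p (0.59) and ssa-miR-212a-5p (0.54). In the slick libraries alone r was 0.76, 0.67, 0.73, 0.80 and 0.53, against 0.22, 0.53, 0.32, 0.02 and 0.61 in the source libraries. Its partner came only at place 27, with r = 0.25, and ola-miR-462 stood at place 31 for ola-miR-731. The median r over the 95 names was 0.05 and 0.06.

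Of other miRNAs tied to low oxygen (miR-210, miR-21, miR-23, miR-24, miR-26, miR-27, miR-103, miR-107, miR-181 and miR-199) 18 names were tested over the source libraries, and 3 rose and 0 fell with concentration, near the 13.2% of all names called higher. The 3 were cgr-miR-26a (0.88 ± 0.25, edgeR adjusted p = 0.0209), ipu-miR-107b (0.66 ± 0.20, 0.0317) and ola-miR-21 (0.29 ± 0.08, 0.0209). The rise of cgr-miR-26a rests on the slope alone, and this name was not among those counted in every library. Against the controls it was at -1.14 ± 4.96, 0.42 ± 2.85 and 0.49 ± 2.83 from the lowest to the highest source concentration, uncalled at each. The median of the list was 0.25 and that of all names -0.01. Among names counted in every library 4 of 14 rose and 0 fell, near the 27.5% of all names there. The median there was 0.26, against 0.09 for all names. In the slick slope 0 of 12 names were called over all names, with a list median of 0.29 against -0.05, and 0 of 11 in the second fit.

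Of the list of immune cells and inflammation (miR-142, miR-146, miR-150, miR-155 and miR-223) 0 of 4 names were called in the source slope over all names. Among names counted in every library 1 of 3 rose, tgu-miR-142-5p (0.41 ± 0.14, edgeR adjusted p = 0.0244), a miRNA of white blood cells, near the same 27.5%. The list median was 0.32 and 0.23 in the 2 fits. No name of miR-191 or miR-425, a mammalian miRNA cluster, was listed.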

How the data were processed

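Small RNA was isolated from pooled larvae with miRNeasy kits and sequenced from NEBNext small RNA libraries, per the labels' protocols. The authors deposited whole-number read counts per miRBase mature name, in 1 table per oil and concentration, per the file headers. Not given in the sources used here: aligner, miRBase release, handling of reads matching several names. Their DESeq2 tables (tool per the submitters' processing notes) hold, per the file headers, the authors' mean signal per group, a score for their difference, the authors' log2 fold changes and the authors' p-values. They served only for the sentences that name them. All columns matched a sample (0 unmatched).

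edgeR 4.0.16 in R 4.3.3 was run on the counts as deposited (TMM, quasi-likelihood F test, Benjamini-Hochberg over all names tested). Each comparison used its own table. Slopes used 185 slick and 190 source names, and fits across oils 131 names, those listed in every table with equal control counts. SE is the absolute log2 fold change over the square root of F. DESeq2 1.42.0 was an alternative. Permutation tests used scipy 1.17.1 and numpy 2.4.6, with 100000 resamples for slopes and correlations. The fits were tested on simulated data whose spread between libraries was far below that found in the fits to all names. That test does not bear on the fits to all names. Alternatives were other scalings and filters, left-out replicates and a replicate block. Library totals were summed over the names fitted, and for levels over the 131 names used across oils. Only at 2.50% slick oil did all 3 same-numbered pairs deviate together with a correlation over 0.1 (r = 0.45, 0.62 and 0.39), and there the block changed no call for either miRNA. The members, lists and tests were chosen with earlier results of these data known. Named miRNAs were the 2 members, the 5 names most like each, up to 4 called names per list, and other names of the same number.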

Additional observations from a re-analysis of the deposited data

How the results depend on the processing

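Of the values recomputed under other settings 285 were alike in direction and call or within the replicate spread, 53 moved further, 6 gained and 4 lost a call, and 23 changed sign, all of them uncalled. With 1 replicate left out these were 269, 60, 4, 11 and 31. ola-miR-731 at 2.50% slick oil went from 0.06 to -0.030 among names counted in every library, -0.0036 with DESeq2 size factors, -0.073 and -0.083 with library totals in the 2 fits, -0.0072 with DESeq2, and -0.017 and -0.011 with all 12 libraries fitted together. With library totals ola-miR-462 went to -0.086 and -0.12 at 5.00% slick oil, 0.027 at 0.135% source oil, 0.29 and 0.23 at 0.54% source oil, -0.14 and -0.19 in the slick slope, and -0.50 and -0.41 in the difference between oils at the highest rank. Under library totals the difference of ola-miR-731 at the lowest rank was 0.00036 and the source correlation of the members 0.26. ola-miR-462 at 0.54% source oil was 0.013 with no count filter, and 0.045 and 0.051 with all 12 libraries. ola-miR-731 was called at 0.27% source oil among names counted in every library (-0.41) and with DESeq2 (-0.43), and at 0.54% among names counted in every library (-0.53), with DESeq2 (-0.53) and with all 12 libraries (-0.48). Its source slope was not called with library totals (-0.22 and -0.20), nor was ola-miR-462 between controls (-0.78). The causes were not tested. With totals of the 131 names used across oils, mean levels of ola-miR-462 became 33.1 (source controls), 31.2 (0.135%) and 44.4 CPM (0.54%). Those of ola-miR-731 became 74.6 (source controls) and 67.8 CPM (0.27%). Scaled over names counted in every library, ola-miR-462 was at 36.7 (0.135%) and 40.0 CPM (0.54%) and ola-miR-731 at 66.3 CPM (0.27%). Over these settings edgeR and DESeq2 called 0 to 33 names at 0.27%, 0 to 64 at 0.54% and 44 to 62 in the source slope.

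The replicate number was fitted as a block, which pairs same-numbered libraries. Under this block ola-miR-731 at 2.50% slick oil was -0.11, and -0.18 among names counted in every library, uncalled as before. The source slope of ola-miR-731 was -0.46 and lost its call over all names, but was called among names counted in every library (-0.45). In that second fit the block ended the call at 0.27% source oil (-0.41, adjusted p = 0.0562) and kept that at 0.54% (-0.54). The labels do not say what a shared replicate number stands for. Outside 2.50% slick oil the correlations of deviations ran from -0.30 to 0.47, and at 0.54% source oil they were 0.47, 0.22 and 0.04.

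With 1 library left out at a time, over both fits, ola-miR-731 ranged from -0.46 to -0.35 at 0.27% source oil, from -0.67 to -0.40 at 0.54% and from -0.59 to 0.32 at 2.50% slick oil. ola-miR-462 ranged from -0.10 to 0.29 at 1.25% and -0.28 to 0.25 at 5.00% slick oil, and from -0.036 to 0.23 at 0.27% and -0.10 to 0.060 at 0.54% source oil. The log2 ratio at 2.50% slick oil ranged from -0.57 to 0.48. With 1 replicate number left out, source slopes ranged from -0.61 to -0.40 for ola-miR-731, from -0.046 to 0.15 for ola-miR-462 and from 0.41 to 0.75 for the ratio, and the slick slope of ola-miR-462 from -0.31 to 0.18. The difference between oils ranged from -0.023 to 0.46 (ola-miR-462) and -0.55 to 0.25 (ola-miR-731) at the lowest rank and from -0.40 to 0.34 (ola-miR-462) at the highest, and ola-miR-462 between controls from -1.01 to -0.80. In the slick experiment the counts of ola-miR-462 were 31 to 168, and their part in the spread was not tested.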
